A study of Mus musculus with 8 samples.

Results

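The 10 genes described here encode the main heat shock proteins of the cytosol and the mitochondrial matrix: Hspa8, Hspa1a and Hspa1b of the HSP70 family, Hsph1 of the HSP110 family, Hsp90aa1 and Hsp90ab1 of the HSP90 family, the HSP40 co-chaperones Dnajb1 and Dnaja1, the small heat shock protein Hspb1 and the mitochondrial chaperonin Hspd1. They were taken by symbol from a table of 17041 genes, and were chosen by their role together with their normalized values in these 8 libraries. All 10 were found, and all 10 passed the filter of a mean normalized value of at least 10. The group differences of these values were known when the genes were chosen, so they are given as a description.

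RNA came from the proximal large intestine of mice 26 weeks old, and each library is a separate sample in the labels, called a mouse here. All mice were ApoE knockouts, a genotype prone to atherosclerosis, bred germ-free and colonized by a single gavage at 8 weeks. The core group (3 mice) received a core community that makes no butyrate, and the core plus R. intestinalis group (5 mice) the same community with Roseburia intestinalis, a bacterium that makes butyrate. The labels used here name neither the sex nor the diet, and do not say which mice shared an isolator. Replicates are numbered as in the sample titles. The core libraries are named C3 to C5 and the name of the table holds the term NoC2, so a further core library may have been left out, which was not analysed here. A normalized value is the authors' estimated reads of a gene after scaling each library by 1 factor.

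Heat shock proteins hold unfolded or newly made proteins and help them fold. HSP70 proteins bind short stretches of a client in a cycle driven by ATP, in which HSP40 proteins deliver the client and HSP110 proteins exchange the nucleotide. HSP90 acts later, on kinases, receptors and other nearly folded clients, and HSP60 encloses proteins imported into mitochondria. Heat and other protein stress activate heat shock factor 1 (HSF1), which binds heat shock elements, repeats of the unit GAA in alternating orientation, and raises the inducible members many-fold. In the gut epithelium, heat shock proteins are known for protecting the barrier, and butyrate is known to raise some of them in cultured cells.

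Estimated depth ran from 4597893 to 15352045 reads per library, and a normalized value of 50 stood for 31 to 109 estimated reads. Epithelial and large intestinal markers were read in every library, and so were smooth muscle markers, whose 7 genes summed to between 85765 and 176933. The libraries differed in GC bias. Across 11749 genes, the deviation of each library from the gene mean was correlated with transcript GC content. In core mice, r was −0.44 for replicate 1, 0.11 for replicate 2 and −0.45 for replicate 3. With R. intestinalis, replicate 1 had the highest r, 0.59, whereas replicate 2 had −0.43. Replicates 3, 4 and 5 of that group had 0.09, 0.02 and 0.30, so both signs occurred in both groups. The group difference itself correlated with GC content at r = 0.46 over these genes, which are not independent replicates.

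The constitutive chaperone Hspa8 and the stress-responsive HSP90 gene Hsp90aa1 were lower with R. intestinalis in every mouse than in any core mouse, each by a mean of about 30% (29.2% and 29.9%). Hsph1 and Dnaja1 also had lower means, while Hsp90ab1, Hspb1 and the inducible pair Hspa1a and Hspa1b had higher means with overlapping groups. Dnajb1 and Hspd1 differed less. In all, 6 genes had a difference below 0 and 4 above. With limma, 0 of the 10 genes passed an adjusted p of 0.05 over 13020 genes, where the background was 0% (smallest adjusted p of any gene 0.503). Their adjusted p-values ran from 0.588 to 0.856, and 2 had an unadjusted p below 0.05, against 8.13% of all genes. The groups did not overlap, lower with R. intestinalis, in 2 of the 10 genes and in 3.31% of all genes tested (5.84% in either direction). The median log2 difference of the 10 genes was −0.16, beside −0.0035 over all genes.

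Hspa8 (GRCm38 chromosome 9, 40800984 to 40810087) encodes HSC70, the HSP70 that cells make without stress and that folds new proteins, uncoats clathrin vesicles and serves chaperone-mediated autophagy. Its values were 29297, 24676 and 23294 in core replicates 1 to 3, and 13594, 22350, 19996, 18270 and 16907 in core plus R. intestinalis replicates 1 to 5. The lowest core mouse lay just above the highest mouse with R. intestinalis, so the groups were separated by a narrow gap. The means were 25756 ± 3143 (SD, n = 3) and 18223 ± 3292 (SD, n = 5), with a log2 difference of −0.51 (SE 0.177). The Hspa8 difference was −0.54 after a GC correction and −0.41 without core plus R. intestinalis replicate 1, the library with the lowest value. By quantile normalization the groups of Hspa8 overlapped, at a log2 difference of −0.41. Of the 50-base words of its longest coding transcript, 70.0% also occur in the annotated copy Gm15459, so some of its reads may map to more than 1 place. The same holds for 51.5% of the words of Hsp90aa1 (Gm12346), 51.6% of Hspb1 (Hsp25-ps1) and 42.8% of Hspd1 (Hspd1-ps3), and these copies were not analysed here.

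**Figure D1:**
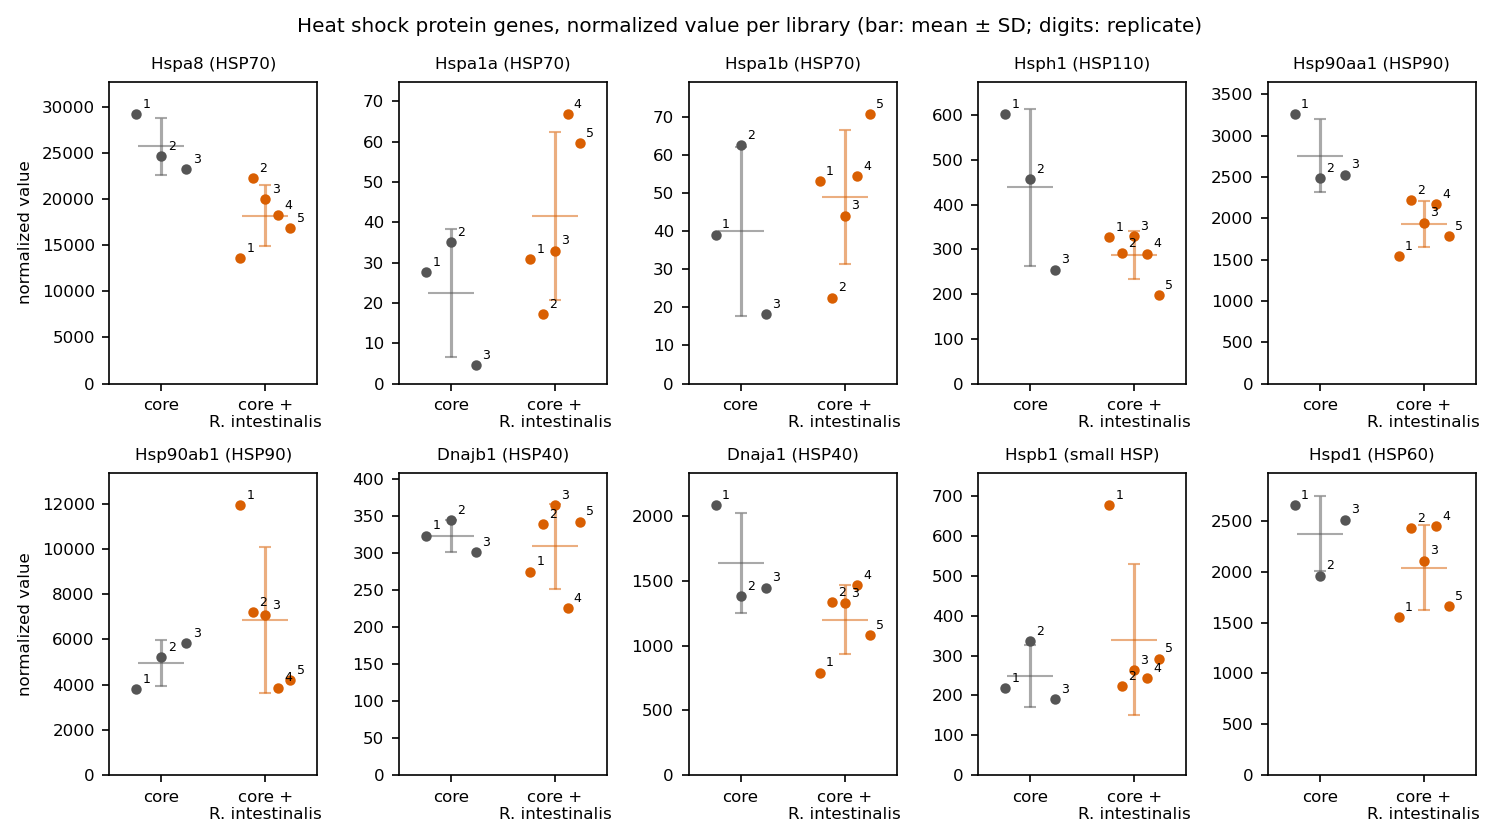
Normalized value (vertical axis, from 0) of the 10 genes in each library, for core (grey, n = 3) and core plus R. intestinalis (orange, n = 5), with the replicate number beside each point and mean ± SD as bars. In Hspa8 and Hsp90aa1 all core points lie above all points with R. intestinalis, and in Hsp90ab1 and Hspb1 core plus R. intestinalis replicate 1 is the highest point, at 11920 and 678.

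Hsp90aa1 (chromosome 12, 110690605 to 110702728) encodes the stress-responsive cytosolic HSP90. Core mice had values of 3263, 2487 and 2527, and mice with R. intestinalis 1543, 2222, 1947, 2171 and 1787. The highest core mouse was again replicate 1, and the lowest mouse of all was again core plus R. intestinalis replicate 1. Means of 2759 ± 437 and 1934 ± 280 gave a log2 difference of −0.51 (SE 0.155). This difference was −0.37 after a GC correction. It was −0.39 with core replicate 1 left out and −0.44 with core plus R. intestinalis replicate 1 left out. The groups of Hsp90aa1 also did not overlap after a trimmed-mean rescaling, quantile normalization or the GC correction, where 5.38%, 6.32% and 5.70% of all genes had groups apart. In the authors' deposited table, Hsp90aa1 has a posterior probability of differential expression of 0.44 and the other 9 genes at most 0.04. At the 0.95 that marks a call here, 0 of the 10 genes were called, against 0.481% of all genes.

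Its paralog Hsp90ab1 (chromosome 17, 45567775 to 45573271) is the HSP90 gene that cells express steadily. It was at 3807, 5214 and 5824 in core mice and at 11920, 7201, 7069, 3867 and 4199 with R. intestinalis. Replicates 1 to 3 with R. intestinalis exceeded every core mouse and replicates 4 and 5 lay within the core range. The means were 4948 ± 1034 and 6851 ± 3233, a log2 difference of 0.37 (SE 0.332) that was 0.14 without core plus R. intestinalis replicate 1. Within a library, the ratio of Hsp90ab1 to Hsp90aa1 was 1.17, 2.10 and 2.31 in core mice and 7.72, 3.24, 3.63, 1.78 and 2.35 with R. intestinalis. The balance of the paralogs thus spanned a wide range among mice of 1 group, and the groups overlapped in it.

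Dnaja1 and Dnajb1 are HSP40 proteins, which hand clients to HSP70 and trigger its ATPase. Dnaja1 (chromosome 4, 40722150 to 40737149), which cells make steadily, had values of 2084, 1382 and 1447 in core mice and 792, 1336, 1331, 1467 and 1083 with R. intestinalis. Core replicate 1 stood above all other mice and core plus R. intestinalis replicate 1 below them, and the groups overlapped. The log2 difference of Dnaja1, −0.45 (SE 0.216), became −0.27 without core replicate 1 and −0.28 after a GC correction. Dnajb1 (chromosome 8, 83608193 to 83612653), the strongly heat-inducible HSP40, had the smallest ratio of highest to lowest mouse of the 10 genes (1.62), with 324, 344 and 302 in core mice and 275, 340, 365, 225 and 343 with R. intestinalis. Its means of 323 ± 21.3 and 309.5 ± 57.7 differed by less than the spread between mice.

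Hsph1 (chromosome 5, 149614287 to 149636376), the HSP110 that exchanges nucleotide on HSP70 and is itself heat-inducible, was at 603, 458 and 255 in core mice. With R. intestinalis it was at 327, 291, 330, 290 and 198. Core replicates 1 and 2 were the highest mice, whereas core replicate 3 lay below 4 of the 5 mice with R. intestinalis. The log2 difference of −0.54 (SE 0.268) therefore depended on single core mice, at −0.27 without core replicate 1 and −0.89 without core replicate 3.

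Hspa1a and Hspa1b, neighbours on chromosome 17 (34969190 to 34972156 and 34956436 to 34959238), encode the HSP70 that is nearly absent without stress and is the textbook target of HSF1. Hspa1a had values of 27.5, 35.2 and 4.57 in core mice and 30.9, 17.2, 33.0, 66.9 and 59.6 with R. intestinalis. Hspa1b had 39.1, 62.6 and 18.2 in core mice and 53.1, 22.5, 44.1, 54.5 and 70.8 with R. intestinalis. Both genes were lowest in core replicate 3, where Hspa1a rested on 4.0 estimated reads, and both were high in core plus R. intestinalis replicates 4 and 5, Hspa1b also in core replicate 2. The log2 difference was 1.09 (SE 0.621) for Hspa1a and 0.36 (SE 0.433) for Hspa1b, and without core replicate 3 it was 0.25 and −0.10. Across the 8 mice these were the genes of lowest level per length, and Hspa1a had the widest range, with the highest mouse 14.6 times the lowest.

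Values of the pair cannot be fully told apart, because 58.8% of the 50-base words of the Hspa1a transcript also occur in that of Hspa1b. Their promoters are alike too. RefSeq's windows (GRCm38.p6, 250 bases before to 50 after the start) are identical at 296 of 300 bases. Counted from 1 at the window's 5′ end, the substitutions from Hspa1a to Hspa1b are C44T, T47C, T249G and C276T. The 120 bases before each start, which differ by the substitution T249G alone, are printed to show what these copies share. They lie at chr17:34972157-34972276 and chr17:34959239-34959358, both on the minus strand, and overlap no annotated exon. Capitals mark a 2-unit heat shock element (GAANNTTC or TTCNNGAA, each its own reverse complement).
Hspa1a: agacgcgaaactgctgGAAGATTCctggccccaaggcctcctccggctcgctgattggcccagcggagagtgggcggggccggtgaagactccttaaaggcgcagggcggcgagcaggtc
Hspa1b: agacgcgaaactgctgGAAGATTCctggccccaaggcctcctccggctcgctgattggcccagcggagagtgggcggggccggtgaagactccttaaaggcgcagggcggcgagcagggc

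Hspb1 (chromosome 5, 135887919 to 135889563) encodes HSP25, a small heat shock protein that keeps unfolded proteins soluble without ATP and binds the actin cytoskeleton. It was at 219, 336 and 191 in core mice and at 678, 224, 263, 243 and 293 with R. intestinalis. Apart from core plus R. intestinalis replicate 1, the mice with R. intestinalis lay within the core range. The log2 difference of Hspb1 was 0.36 (SE 0.342), 0.08 without that library and −0.02 after a GC correction. At 61.7%, Hspb1 had the highest transcript GC content of the 10 genes.

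Hspd1 (chromosome 1, 55077835 to 55088243) encodes HSP60, which with its lid, the product of Hspe1, forms the folding chamber of the mitochondrial matrix. Core mice had values of 2652, 1961 and 2513, and mice with R. intestinalis 1551, 2428, 2108, 2448 and 1658. The low mice were replicates 1 and 5 with R. intestinalis, and the others overlapped with core. The log2 difference of Hspd1 was −0.23 (SE 0.186), and −0.16 after a GC correction. With 1 library left out it was −0.14 (core plus R. intestinalis replicate 1), −0.15 (core replicate 1) or −0.37 (core replicate 2). Hspe1 averaged 784 ± 108 and 642 ± 92.3, with a log2 difference of −0.29 (limma adjusted p = 0.591). Over the 8 mice the partners, 1 of 4 pairs with a gene outside the 10 that were picked after values were seen, correlated with Pearson's r = 0.80 and Spearman's rho = 0.88, given with no test because of that choice. Without the 2 mice farthest from the Hspd1 median, r was 0.83.

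Hspd1 and Hspe1 lie head to head on chromosome 1 and share a promoter region. The 3-unit heat shock element (GAANNTTCNNGAA, searched on both strands, which contains 2-unit elements) occurred in windows of 2 of the 7 members with a RefSeq promoter, Hsph1 and Hspd1, and in 0.662% of all 27025 genes with a window (0.603% of 32851 windows). Among 95 other chaperone and stress genes with a window it occurred in Dnajb6, Chordc1 and Hspe1. The 2-unit element occurred in 6 of the 7 members, in 21.05% of those 95 genes and in 16.97% of all genes (15.06% of windows). No window was matched for Hspa8, Hsp90aa1 and Hsp90ab1. A match is a description of letters, and binding was not measured. The elements are printed to show how the number of units differs. Capitals mark the 3-unit match, joined where matches overlap, or, for Hspb1 and Dnaja1, the 2-unit match.
Hspe1 with Hspd1: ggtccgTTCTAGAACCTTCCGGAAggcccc
Hsph1: gctgcagaTTCTGGAAAGTTCt
Chordc1: ccgGAACGTTCGGGAAAATTCCTGAAgca
Hspb1: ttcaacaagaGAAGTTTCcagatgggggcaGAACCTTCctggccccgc
Dnaja1: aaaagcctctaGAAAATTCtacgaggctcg

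On GRCm38.p6 these stretches lie at chr1:55088053-55088082 (plus strand), chr5:149636287-149636308 (minus), chr9:18292260-18292288 (plus), chr5:135887792-135887839 (plus) and chr4:40722333-40722362 (plus). The element of Hspe1 begins 89 bases before its start. It is also in 1 of the Hspd1 windows, 144 bases before the start that this window is set on. The other Hspd1 window, 55088194 to 55088493, spans the outer end of the gene printed above (55088243, minus strand) and does not hold the element. The element of Hsph1 lies inside the transcript, from base 37 to base 49, and that of Chordc1 spans the start. The stretch of Hspe1 overlaps an annotated exon of Hspd1, and that of Dnaja1 annotated exons of Dnaja1 and Gm6297. Chordc1, an HSP90 co-chaperone, averaged 395 ± 119 and 298 ± 77.5. It correlated with Hsph1 at r = 0.77 and rho = 0.74, a pair picked likewise, and r was 0.14 without the 2 mice farthest from the Hsph1 median.

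Levels between genes can be compared only per length, as the normalized value per kilobase of the longest principal transcript. On that scale Hspa8 was far above the rest, between 5678 and 12238 in the 8 mice, followed by Hsp90ab1 (1510.5 to 4730). Neither range overlapped with that of any gene below it. Hspd1 (640 to 1095) and Hsp90aa1 (470 to 995) overlapped, as did Hsp90aa1 with Hspb1 (211 to 750), and Hspb1 with Dnaja1 (141 to 371). Dnajb1 (75.2 to 122) lay below Dnaja1 without overlap, and Hsph1 (52.1 to 159) overlapped with both. The inducible Hspa1b (6.50 to 25.3) and Hspa1a (1.54 to 22.5) were lowest and overlapped with each other.

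Across mice the genes did not move as 1 block. Of 45 pairs, 6 had a Pearson correlation with an exact permutation p below 0.05 after adjustment over the pairs, and 0 had a Spearman correlation that passed (smallest adjusted p = 0.0502). The 10 genes were chosen with these values known, and the permutations ran over all 8 mice without keeping the groups. The p-values of pairs are therefore a description and do not test whether the genes go together. The share over all pairs of genes was not computed. Hspa8 and Hsp90aa1 were the closest pair (r = 0.96, rho = 0.95, exact permutation p = 0.00067 and 0.00114, adjusted 0.0141 and 0.0502). Their r was 0.87 without the 2 mice farthest from the Hspa8 median, 0.89 after the group means were removed and 0.84 after a GC correction. Within each library Hspa8 was 8.41 to 10.3 times Hsp90aa1. Dnaja1 followed Hsp90aa1 (r = 0.94, rho = 0.86, exact permutation adjusted p = 0.0141 and 0.0964) and, less closely, Hspa8 (r = 0.91, rho = 0.74, exact permutation adjusted p = 0.0255 and 0.229). Without the 2 mice farthest from the Hspa8 median, r of the latter pair was 0.57.

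Hspa1a and Hspa1b were another close pair (r = 0.90, rho = 0.90, exact permutation adjusted p = 0.0179 and 0.0513), with the shared sequence described above. Hspd1 followed Dnaja1 (r = 0.88, rho = 0.90, exact permutation adjusted p = 0.0141 and 0.0513). Hspb1 went against Hspd1 (r = −0.85, rho = −0.93, exact permutation adjusted p = 0.0203 and 0.0502), and r of this pair was −0.28 after a GC correction. With the inducible Hsph1, r was 0.03 for Hspa1a, 0.06 for Hspa1b, 0.13 for Dnajb1 and 0.03 for Hspb1. It was 0.63 for the stress-responsive Hsp90aa1 (rho = 0.36), and 0.0039 without the 2 mice farthest from the Hsph1 median. For the remaining genes, r with Hsph1 was 0.60 (Hspa8), 0.54 (Dnaja1), 0.33 (Hspd1) and −0.12 (Hsp90ab1). Hspa1a and Hspa1b rest on few estimated reads in some libraries, so their low r with Hsph1 says little about a shared order.

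**Figure D2:**
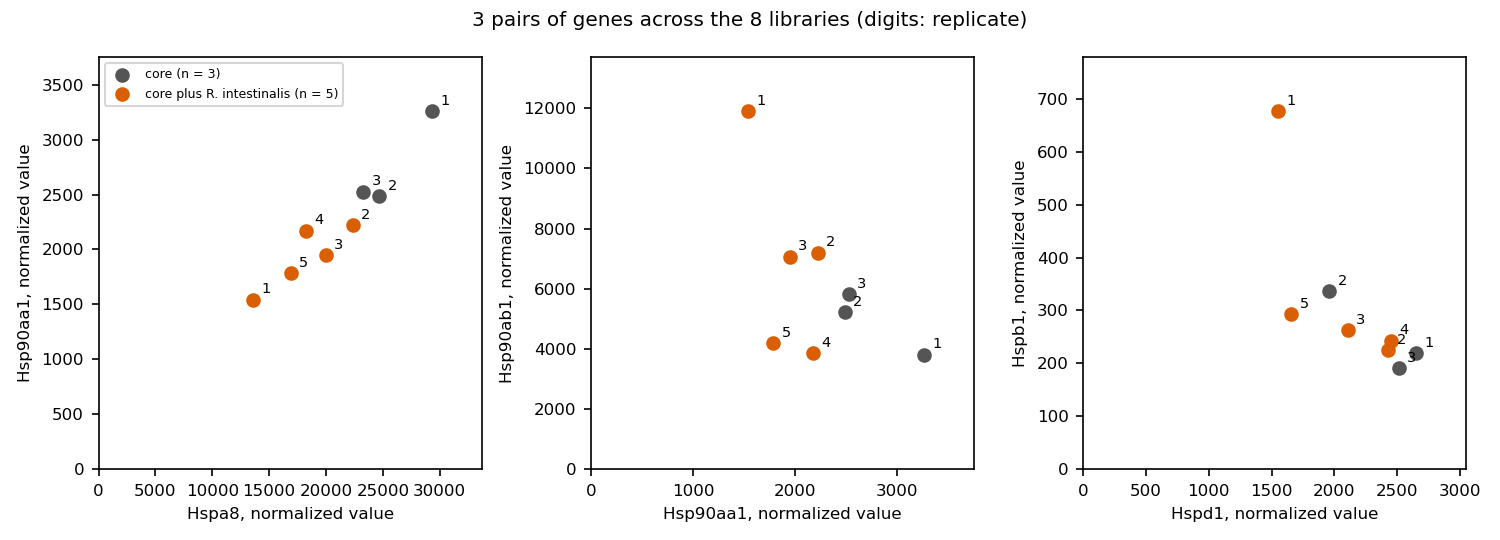
Normalized values of 3 pairs of genes in the 8 libraries, core in grey (n = 3) and core plus R. intestinalis in orange (n = 5), replicate numbers beside the points. Hsp90aa1 follows Hspa8 along 1 line, whereas Hsp90ab1 and Hspb1 are highest in core plus R. intestinalis replicate 1, where Hsp90aa1 and Hspd1 are lowest.

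Core plus R. intestinalis replicate 1 held the lowest value of 4 of the 10 genes (Hspa8, Hsp90aa1, Dnaja1 and Hspd1) and the highest of 2 (Hsp90ab1 and Hspb1). Core replicate 1 held the highest value of 5 genes, these 4 and Hsph1. Dnaja1, Hsp90aa1, Hspd1 and Hsph1 have transcript GC contents of 41.2% to 47.4% and differences below 0. Hspa1a, Hspa1b and Hspb1 have 58.1% to 61.7% and differences above 0. Hspa8 and Hsp90ab1, at 51.2% and 51.0%, differed in sign at nearly the same GC content, and Dnajb1, at 52.7%, had a difference of −0.08. The part of GC content in these differences was not tested. After a GC correction 7 of the 10 differences were below 0, with Hspb1 the added one, and the median was −0.16. In the same comparison all 7 smooth muscle markers and all 6 fibroblast markers had differences below 0. Fibroblast markers summed to 7773 to 8921 in core mice and 4614 to 6994 with R. intestinalis, smooth muscle markers to 128677 to 176933 and 85765 to 151462. Of the epithelial markers, 8 of 9 had differences above 0, and their sums overlapped (76417 to 85734 and 73494 to 101278). All 3 endothelial markers and all 5 adipocyte markers tested were below 0, and Lep was listed at 0 in core plus R. intestinalis replicates 1 and 5. The median log2 difference was −1.73 for adipocyte and −0.60 for fibroblast markers. Other markers went both ways: leukocyte (2 below 0, 2 above), large intestinal epithelium (2 and 3), enteric neuron and glia (3 and 1) and skeletal muscle (1 and 2). The part of these cell types in the heat shock protein values was not tested. In whole tissue, fewer cells of a type and less RNA per cell cannot be told apart.

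**Figure D3:**
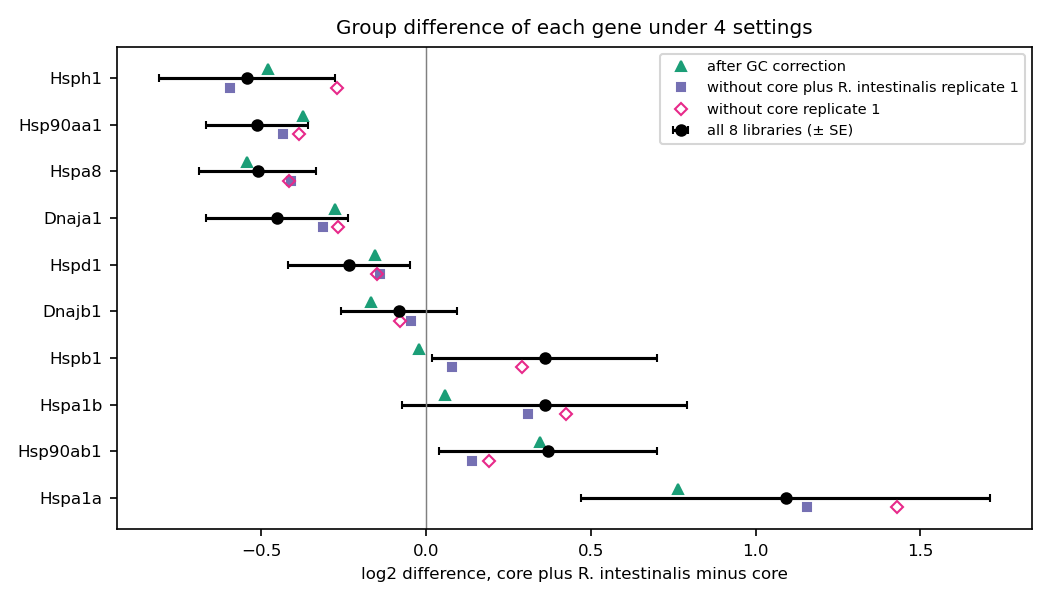
Log2 difference, core plus R. intestinalis minus core (horizontal axis), of the 10 genes with all 8 libraries (black, ± SE), after a GC correction (green), with core plus R. intestinalis replicate 1 left out (violet) and with core replicate 1 left out (pink, open). Hspa8, Hsp90aa1, Hsph1, Dnaja1, Hspd1 and Dnajb1 are below 0 under all 4 settings, and Hspb1 goes from 0.36 to −0.02 after the correction.

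**Figure D4:**
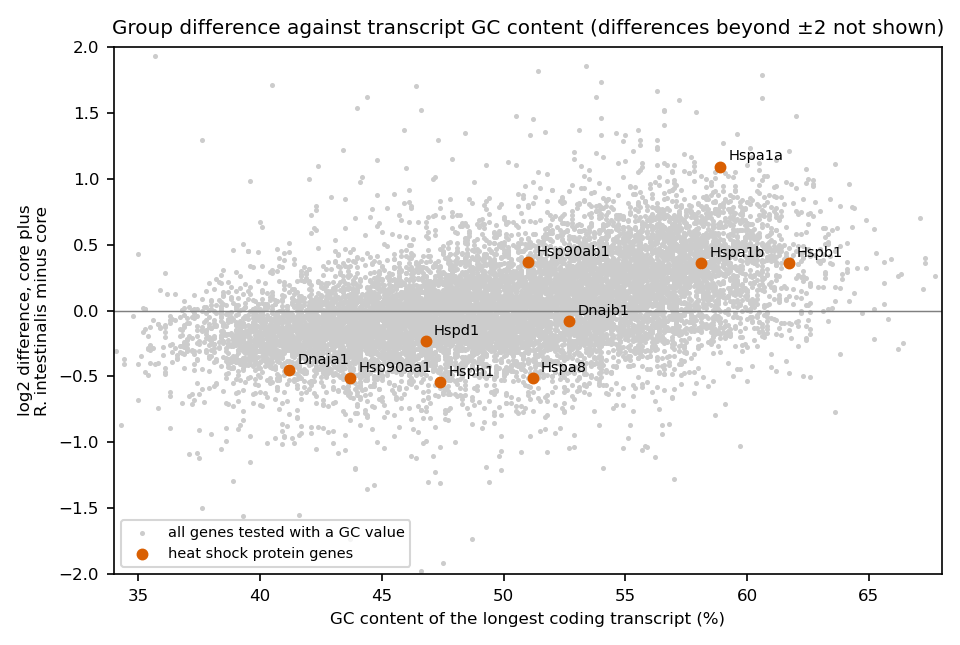
Log2 difference between groups (vertical axis) against GC content of the longest coding transcript in percent (horizontal axis), for genes tested (grey) and the 10 heat shock protein genes (orange, named). Differences tend to be higher at higher GC content over all genes (r = 0.46), and Hspa8 and Hsp90ab1 differ in sign at 51.2% and 51.0%.

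The other genes of the chaperone system were taken from 12 lists of 117 genes, of which 112 were tested. By limma, 0 passed the adjusted threshold in either direction (smallest adjusted p = 0.588), 75 had a difference below 0 and 37 above. That is 67.0% below 0, beside 50.4% of all genes tested, and a median of −0.16. Of the 112 genes, the groups did not overlap in 6 lower with R. intestinalis and 1 higher, where the background is 3.31% and 2.53% of all genes. Of these 6, 4 are chaperones of the endoplasmic reticulum. The lists share some genes, and no list was tested as a set.

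The cytosolic chaperonin, which folds actin and tubulin, and prefoldin, which feeds it, had all 14 genes below 0, with a median of −0.26. The spread was small, from −0.35 to −0.05. After a GC correction, which left out Cct6a for lack of a GC value, the median was −0.21. Cct6a averaged 930 ± 62.8 in core mice and 745 ± 131 with R. intestinalis, Tcp1 1770.5 ± 199 and 1448 ± 254, and Cct4 1294 ± 152 and 1065 ± 164. The ranges of the groups overlapped in all 14.

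Genes known as heat-induced, apart from the 10, had 14 of 16 differences below 0 and a median of −0.27 (−0.24 after a GC correction). Cacybp, which binds HSP90 and ubiquitin ligases, averaged 672 ± 122 and 461 ± 88.9, a log2 difference of −0.55 (SE 0.188, limma adjusted p = 0.588) with groups that did not overlap. Serpinh1, the collagen chaperone HSP47, averaged 745 ± 161 and 539 ± 122, and Ahsa1, which activates the HSP90 ATPase, 1076 ± 138 and 882 ± 62.4.

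Of the other HSP70 and HSP110 genes, 6 of 7 were below 0, with a median of −0.21 that was −0.11 after a GC correction and −0.31 without core replicate 2. Hspa4, an HSP110 relative, averaged 1471 ± 187 and 1212.5 ± 138, its homolog Hspa4l 214 ± 5.47 and 175 ± 30.1, and the microsomal Hspa13 332 ± 62.2 and 257 ± 32.9. Among 17 further J-domain genes 13 were below 0, with a median of −0.13 (−0.09 after a GC correction). Dnajb12, anchored in the endoplasmic reticulum membrane, had the opposite sign, with 132 ± 24.6 and 184 ± 19.8 and a log2 difference of 0.49, with the highest core mouse (158) just above the lowest with R. intestinalis (157). Dnajb4 averaged 366 ± 54.0 and 284 ± 66.4, and Dnajc8 1324 ± 171 and 1111 ± 182.

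HSP70 co-chaperones were split, with 6 of 10 above 0 and a median of 0.05 that became −0.15 after a GC correction. Stub1, the ubiquitin ligase CHIP that sends HSP70 clients to the proteasome, averaged 221 ± 39.1 and 356 ± 116, with groups that did not overlap (log2 difference 0.65, SE 0.235, limma adjusted p = 0.588). St13, the HSP70-interacting protein HIP, went the other way without overlap, at 797 ± 68.5 and 611 ± 107. Transcript GC content was 60.8% for Stub1 and 43.3% for St13, and its part in the result was not tested. Bag6 averaged 163 ± 2.10 and 257 ± 125. Of 16 HSP90 co-chaperones 11 were below 0 (median −0.17, and −0.08 after a GC correction). Fkbp5, a glucocorticoid-responsive immunophilin, averaged 354 ± 56.1 and 534.5 ± 144, and Unc45a, a myosin chaperone, 78.5 ± 33.9 and 137 ± 76.4.

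The other small heat shock proteins, several of them best known from muscle, had 3 of 5 tested genes below 0, with a median of −0.25 (−0.34 after a GC correction). Cryab, alpha-B-crystallin, averaged 584 ± 124 and 434 ± 148, Hspb8 409 ± 118 and 338 ± 53.6, and Hspb2 36.9 ± 14.3 and 26.8 ± 9.76. In mitochondrial folding and quality control, 7 of 12 genes were below 0 and the median was −0.04 (−0.08 after a GC correction). Lonp1, the matrix protease, averaged 158 ± 14.6 and 220.02 ± 65.0, and Grpel1, the nucleotide exchange factor of mitochondrial HSP70, 666 ± 74.4 and 564 ± 77.9.

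The groups overlapped in all 3 tested heat shock factors and regulators. Hsf1, the master regulator, averaged 79.4 ± 29.8 and 104 ± 39.9, Hsf2 84.6 ± 13.8 and 86.2 ± 18.6, and their inhibitor Hsbp1 1370 ± 161 and 1192 ± 123. The cold-induced RNA-binding proteins differed in sign, Cirbp at 201 ± 101 and 285 ± 66.3 and Rbm3 at 2406 ± 678 and 2120 ± 670. Immediate-early genes, which respond within minutes to stimulation, had 9 of 10 differences above 0, with a median of 0.46 that became 0.20 after a GC correction. Zfp36 averaged 201 ± 50.9 and 384 ± 167, Ier2 82.2 ± 19.8 and 130 ± 53.6, and Junb 98.0 ± 46.3 and 192 ± 149.

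Chaperones of the endoplasmic reticulum had 13 of 14 differences below 0, with a median of −0.24 and −0.30 after a GC correction. Hspa5, the HSP70 of that compartment, averaged 4996 ± 1206 and 3098 ± 386, Pdia4 1651 ± 194 and 1229 ± 199, and Manf 1084 ± 189 and 726 ± 69.0. In these 3 genes and Hsp90b1, the local HSP90, the groups did not overlap. That is 4 of the 14 genes lower with R. intestinalis, where the background is 3.31% of all genes tested. In the last 2 of the 4 pairs picked after values were seen, given with no test, Hspa8 correlated with Hspa5 (r = 0.93, rho = 0.98), and r was 0.88 without the 2 mice farthest from the Hspa8 median. Hsp90aa1 and Hsp90b1 ranked the 8 mice in the same order (r = 0.98, rho = 1), and r was 0.96 without the 2 mice farthest from the Hsp90aa1 median. All these genes were read in the same libraries, which differed in GC bias.

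**Figure D5:**
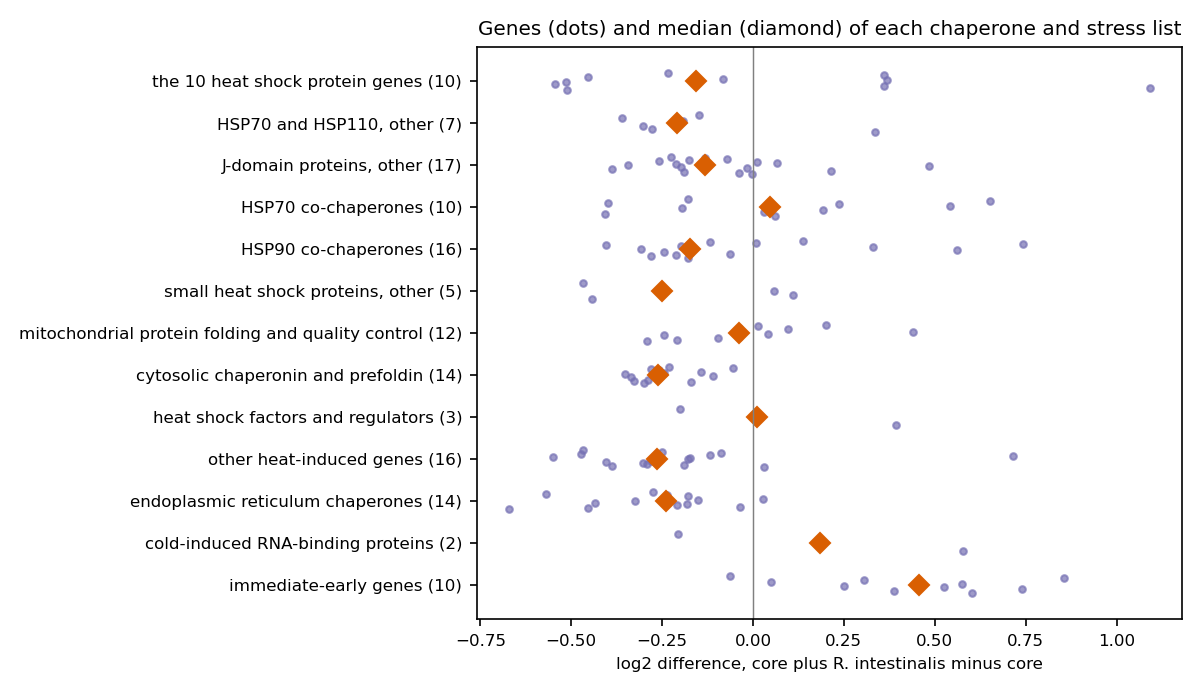
Log2 difference, core plus R. intestinalis minus core, of each tested gene (dots) and the median (diamonds) for the 10 heat shock protein genes and 12 lists of the chaperone and stress system, with the number tested in parentheses. All 14 chaperonin and prefoldin genes lie below 0, and 9 of 10 immediate-early genes above.

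Genes whose profile over the 8 mice was most like that of Hsph1 or Hspd1 were looked up among 9471 genes with a mean of at least 50. The search left out the other members, predicted gene models, Riken clones and ribosomal protein genes. For Hsph1 the genes most alike were Ubfd1 (r = 0.97), C1qtnf9 (0.97), Znhit6, Flrt2 and Sema3a, and 10 genes had r of at least 0.9. For Hspd1 they were Nanp, Canx, Rsrc1, Tspan12 and Kpna3, all at r = 0.99, and 484 genes had r of at least 0.9. The profile of Hsph1 was thus shared by few genes and that of Hspd1 by many. These are the highest of many correlations over 8 libraries and are given as a description.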

How the data were processed

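The deposited table holds 1 value per gene and library, a normalized expression signal in which, from the values, the authors divided estimated reads by 1 factor per library, with no division by length. Bowtie2, RSEM 1.2.23 and the build mm9 are listed, with no role or order, per the submitters' processing notes. For the annotation and the gene filter, nothing is stated in the labels or the file header. The authors' deposited table also gives, per gene, the probability that it is differentially expressed (a score from 0 to 1) and 2 fold ratios between the groups. Low values clustered on 1 step per library (79.9% to 84.5% of values under 30 within 0.05 of a step), so depth is an estimate and whole reads were not assumed.

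Tests used log2(value + 1), a scale on which folds of genes with low values come out too small, for genes with a mean of at least 10, with limma 3.58.1 in R 4.3.3 (mean-variance trend, Benjamini-Hochberg adjustment). The script was tested on simulated data. Nothing says that mice of 1 group were independently colonized, so p-values cover only the spread between these samples. Members and lists were chosen with earlier results of these data known. Named were all members, from each list the 3 genes with the smallest p, and the 5 genes most like Hsph1 and Hspd1. Bag6 and Pfdn6 were matched by older symbols. GC content and lengths come from GENCODE M21, promoters from RefSeq on GRCm38.p6, and no coordinates were carried between builds. The GC correction (lowess, span 0.3) was chosen after seeing the data and left out tested genes with no GC value, keeping 11749. Alternatives were other pseudocounts (0.5, 5), no filter or a minimum mean of 50, a trimmed-mean or quantile rescaling, library weights, a replicate block and each library left out.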

Additional observations from a re-analysis of the deposited data

Results flagged for a closer look

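Hspb1 in core plus R. intestinalis replicate 1 was far from the other 4 mice of its group, at 678 beside 293 for the next. The same library stood apart as the highest in 4 more of the 44 genes looked at, Stub1 (558, next 351), Bag6 (471, next 235), Unc45a (272, next 118) and Lonp1 (333, next 212). Chance marks about 1 in 20 groups in this way. The check covered only the core plus R. intestinalis group, as the core group has too few mice for it. The genes looked at were the members and, from each list, those with the smallest limma p. All 5 marks were in core plus R. intestinalis replicate 1. The transcript GC contents of the 5 marked genes ran from 57.3% (Lonp1) to 61.7% (Hspb1).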

How the results depend on the processing

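The number of genes past the threshold was 0 in all fits except limma's library weights (455) and the fit without core replicate 1 (1), and ran from 0 to 1 with any single library left out. With the replicate number of the title or of the sample name as a replicate block it was 0, with 395 and 851 genes at an unadjusted p below 0.05, beside 1058 without the block. No call changed with the block. Same-numbered mice did not deviate together (r of −0.12, −0.53 and −0.07 by title, −0.01, −0.41 and −0.49 by sample name), so the numbers were not taken to pair them. The library weights gave core plus R. intestinalis replicate 3 a weight of 7.98. Of the 10 members, 6 kept their sign under all 18 settings at which each was recomputed (17 for Hspa1a and Hspa1b, which a minimum mean of 50 leaves out). The sign of Hspa1b changed without core replicate 3 (−0.10), that of Hsp90ab1 with the sample-name block (−0.0033), that of Hspb1 with the GC correction (−0.02), and that of Dnajb1 with the title block (0.0061), library weights (0.11) and without core plus R. intestinalis replicate 4 (0.03). With single libraries left out, Hspa8 ran from −0.59 to −0.41 and Hsp90aa1 from −0.58 to −0.39. List medians near 0 changed sign under some settings, among them HSP70 co-chaperones (−0.02 without core plus R. intestinalis replicate 1) and mitochondrial folding (0.02 without replicate 5 of that group). The causes were not tested. Hspa1a and Hspa1b rest on 4.0 to 96.5 estimated reads.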
